A study of Mus musculus with 6 samples.

Results

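CD8 T cells of the mouse soleus, a slow hindlimb muscle, were described from single-cell RNA sequencing of sorted leukocytes. A barcode, which stands for 1 cell, was kept with at least 200 genes and at most 10% mitochondrial UMIs (a UMI is 1 counted RNA molecule). CD8 T cells were selected on their UMIs of marker genes. A kept barcode was taken as one when it held UMIs of at least 2 of the T cell receptor complex genes Cd3e, Cd3d, Cd3g, Trac, Trbc1 and Trbc2, and of Cd8a or Cd8b1, the chains of the CD8 coreceptor. It also had to hold fewer than 2 of the γδ T cell genes Trdc, Trdv4, Tcrg-C1, Tcrg-V6 and Cd163l1, and no UMI of Cd4, of the B cell gene Cd79a or of the macrophage genes C1qa and Csf1r. This gave 382 CD8 T cells, 3.05% of 12520 kept barcodes.

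The mice were male C57BL/6, either young (4 to 5 months) or old (20 to 22 months). Controls walked freely, HU mice had 14 days of hindlimb unloading, and 4-day reload mice had 14 days of unloading and then 4 days back on their feet. For each young library the muscles of 10 (control), 8 (HU) and 10 (4-day reload) mice were pooled, and for each old library those of 20, 10 and 10 mice. The cells were sorted for live (DAPI−) cells that carry CD45, the surface protein of all leukocytes. Each group was 1 library, so there is no measure of the spread between mice, and intervals given for one library cover counting error only. Per the labels, both control libraries were read on 1 flow cell and the 4 HU and reload libraries on another. The titles also give each treatment a number of its own, whose meaning they do not state. Control and the other treatments therefore cannot be told apart from the flow cells, nor any of the treatments from what these numbers mark, and young and old are compared within each treatment.

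CD8 T cells recognise peptides held by MHC class I molecules and kill the cells that show them with perforin and granzymes. A naive CD8 T cell expresses Ccr7 and Lef1 and moves between blood and lymph nodes, while effector and memory cells enter tissues and carry Ccl5, Nkg7 and granzymes. Granzyme K (Gzmk) is known from a CD8 effector memory population that builds up in tissues of old mice, where it appears together with Eomes, Tox and Pdcd1.

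Among the 382 cells, 189 held both coreceptor genes, 154 held Cd8b1 alone and 39 held Cd8a alone. Gzmk, a marker that the selection did not use, was found in 88 cells (23%). At the threshold of the selection, the 50 members with UMIs of exactly 2 receptor complex genes had a median of 2398 UMIs, and 84% held Cd8b1 and 16% Gzmk. The 20 barcodes just outside, which met every other condition but held 1 receptor complex gene, had a median of 1538 UMIs, and 90% held Cd8b1 and 25% Gzmk. The CD8 T cells held 1654042 UMIs in all, between 22182 in young HU and 1059045 in old control, with library medians of 3065 to 4247 UMIs a cell.

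Markers of lineages other than lymphocytes were low in most members. Summed over all members of a library, the fibroblast, muscle fibre and red blood cell lists reached at most 6 UMIs. The γδ T cell list reached at most 4, but the selection itself limited its genes. Lists of other lymphocytes were found more widely. Of the 229 old control members, 106 held 242 UMIs of the list for type 2 innate lymphoid cells (such as Gata3 and Rora). The CD4 T cell list, without Cd4, had 116 UMIs in 68 of them. The regulatory T cell list had 86 in 45, the B cell list 63 in 34 and the NK cell list 43 in 27. A few cells held many UMIs of other lineages. In young control 99.8% of 444 neutrophil UMIs lay in 1 cell, and in old control 99.4% of 2692. The dendritic cell list had 723 UMIs in young control, 91.7% of them in 1 cell. In old control it was spread more widely, with 4125 UMIs in 57 of the 229 members and 30.8% of them in 1 cell. All 328 endothelial UMIs of young HU lay in 1 of its 5 cells, which held 50.4% of that library's CD8 UMIs. In all, 25 members (6 and 14 from the young and old controls, 1 and 4 from the young and old reload libraries) held at least 3 markers of macrophages, neutrophils, B cells or dendritic cells, and values without them are given where they change a call.

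The control libraries also shared barcodes. They had 41 barcodes in common, against 5 to 17 for the other 14 pairs of libraries, and in 36 of the 41 the larger UMI total was at most 25% above the smaller, against 0 to 3 for the other pairs. Of the CD8 T cells, 19 of 55 in young control and 18 of 229 in old control carried such a barcode, and 12 barcodes counted as CD8 T cells in both. These cells were shallow, with a median of 752 UMIs against 4478 in the other control members. They held no UMI of Ccr7, Lef1, Il7r, Klf2 or Tcf7, while 73.0% of them held Gzmb against 34.0% of the others, and 62.2% held Prf1 against 11.7%. Of the 18 that held a Trbv gene, 14 (77.8%) held Trbv12-1. Of the 36 barcodes with like totals, 30 correlated best with their own barcode in the other library. Which library such cells belong to was not tested. Control values are also given without them where a call changed or a ratio moved over 1.5-fold.

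Old muscle held a larger share of CD8 T cells than young muscle under each treatment. In control, 229 of 2631 old cells (8.70%, 95% exact binomial interval 7.65 to 9.85) and 55 of 1605 young cells (3.43%, 2.59 to 4.44) were CD8 T cells, a difference of 5.28 percentage points (3.85 to 6.66). In HU, 44 of 1890 old cells (2.33%, 1.70 to 3.11) stood against 5 of 1518 young cells (0.329%, 0.107 to 0.767). In 4-day reload, 38 of 2425 old cells (1.57%, 1.11 to 2.14) stood against 11 of 2451 young cells (0.449%, 0.224 to 0.802). The share in old muscle was 2.54, 7.07 and 3.49 times that in young muscle, in the same order. Over the 3 treatments the mean difference was 2.80 points, higher in old in 3 of 3, with a two-sided exact permutation p = 0.25, the smallest that 3 pairs can give. Without the shared barcodes the control shares were 8.15% and 2.30%, a 3.54-fold difference.

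CD8 T cells were also set against T cells alone. T cells, taken as kept barcodes with at least 2 receptor complex genes and no Cd79a, C1qa or Csf1r, numbered 1241. All T cells together also held a larger share in old muscle, at 11.3% of young and 25.4% of old kept cells in control. The shares were 2.83% and 10% in young and old HU, and 2.53% and 4.08% in young and old 4-day reload. In control, CD8 T cells were 30.4% of young and 34.3% of old T cells, a difference of 3.95 points with an interval of −3.93 to 11.2 that includes 0. They were 11.6% and 23.3% in young and old HU (difference 11.7 points, −2.31 to 20.9), and 17.7% and 38.4% in young and old 4-day reload (20.6 points, 6.21 to 33.0). The mean difference was 12.1 points, with an exact permutation p = 0.25. Without the shared barcodes the control shares were 23.5% and 33.1%, and the difference of 9.54 points (1.41 to 16.6) no longer included 0. T cells with no UMI of Cd4, Cd8a or Cd8b1 made up 51.5% to 83.7% of the T cells of a library, most in young HU. There were 2.5 to 3.8 CD8 for each CD4 T cell in 5 libraries and 0.579 in young reload, where 19 CD4 T cells stood against 11 CD8 T cells. CD8 T cells could be found by either Cd8a or Cd8b1 and CD4 T cells by Cd4 alone, so these ratios depend on detection. Selected on cells thinned to 1000 UMIs, CD8 and CD4 T cells numbered 93 and 18 in old control, 22 and 1 in old reload and 5 and 8 in young reload.

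**Figure D1:**
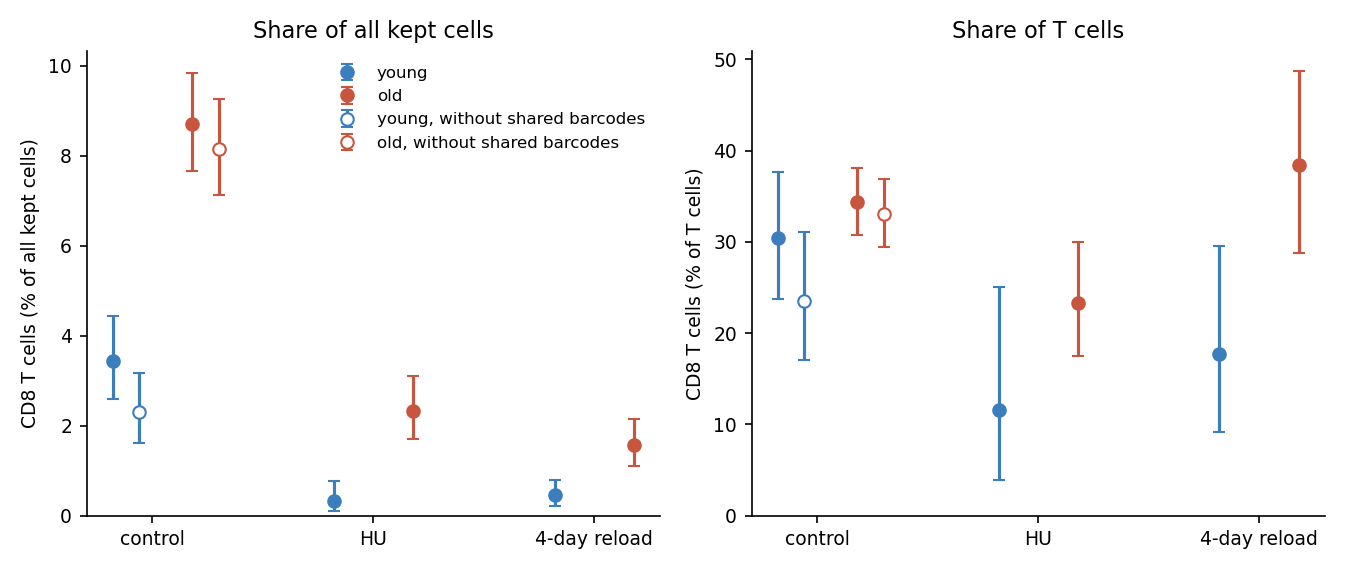
CD8 T cells as a percentage of all kept cells (left) and of T cells (right) in young (blue) and old (red) muscle by treatment; points are 1 library each, bars are 95% exact binomial intervals, and open points leave out the barcodes that both control libraries hold. The old point lies above the young one in each treatment, with 8.70% against 3.43% of kept cells in control.

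To place the CD8 T cells among lymphocytes, their summed counts were compared with those of CD4 T cells (136 cells, selected the same way with Cd4 in place of the CD8 chains) in the 5 libraries with at least 10 cells of each kind. The fit used edgeR's quasi-likelihood test with the library as a block, and genes of the selection rules were left out. Of 1912 genes, 5.02% were higher in CD8 T cells at an adjusted p under 0.05 and 3.19% were lower. Of 12 cytotoxic granule genes tested, 6 were higher in CD8 T cells (Gzma, Gzmb, Gzmm, Nkg7, Ctsw and Cst7) and none was lower, with a list median of 1.34 (log2) against 0.01 for all genes. Gzma, granzyme A, had 617, 364, 177, 845 and 608 CPM (1000000 × the gene's UMIs / all UMIs of the summed cells) in CD8 T cells of young control, old control, old HU, young reload and old reload, against 32.1 CPM in CD4 T cells of old control and no UMI in the 4 other libraries. Its log2 fold change was 4.87 ± 0.42 (SE). Ly6c2, a surface protein of memory CD8 T cells, was higher by 4.18 ± 0.30 (adjusted p = 2.7e-08), and the chemokine gene Ccl5 by 3.26 ± 0.48.

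All 5 NK receptor genes tested were higher in CD8 than in CD4 T cells: Klrd1 (3.41 ± 0.42), Klrc1, Klrk1, and the signalling adaptors Tyrobp and Fcer1g. The calls of S100a8 and S100a9 rested on the 1 neutrophil-marked cell in each control library. CD4 T cells held more of several ligand and receptor genes, among them the checkpoint gene Ctla4. Cd40lg, the ligand that activates B cells, was lower in CD8 T cells by 4.05 on the log2 scale. Tnfrsf4 was lower by 4.04, Tnfsf11 (RANKL) by 5.64, Ctla4 by 2.87 and Icos by 2.12. Of 18 T cell receptor signalling genes, 5 were lower in CD8 T cells (Cd247, Cd28, Icos, Cd5 and Cd6) and none higher. None of 10 naive and central memory genes passed the test in either direction. Gzmk did not separate the kinds of T cell: it had 33.8, 282, 54.3, 63.4 and 120 CPM in CD8 T cells and 0, 399, 0, 172 and 0 CPM in CD4 T cells of the same libraries, a log2 fold change of 0.16 ± 0.43 (adjusted p = 0.94).

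Against NK cells (at least 2 of Ncr1, Klrb1c, Klra8, Klra4, Klre1 and Klri2, and no Cd3e, Cd3d or Cd3g; the 4 libraries with at least 10 cells of each kind), 8.19% of 2918 genes were higher in CD8 T cells and 6.03% lower. Of the 12 naive and central memory genes tested 9 were higher and none lower. Ccr7, the receptor that brings cells into lymph nodes, had 465, 195, 359 and 184 CPM in CD8 T cells of young control, old control, young reload and old reload, and at most 3.87 CPM in NK cells (7.78 ± 0.49). The survival cytokine receptor Il7r was higher by 4.52 ± 0.38, and Lef1 and Tcf7 by 2.57 and 2.31. Gzmk was higher than in NK cells by 5.02 ± 0.48 and Gzmm by 2.26 ± 0.49, but 8 of the 13 cytotoxic granule genes were lower. Among these, Gzma had a log2 fold change of −3.32 ± 0.33, perforin (Prf1) of −2.58 ± 0.27 and Gzmb of −1.83 ± 0.32. Lower too were 8 of 10 NK receptor genes and all 6 circulating effector genes tested, such as Zeb2 and Klrg1, and Irf8 (−5.70 ± 0.36). Ccl5 was high in both kinds of cell and did not pass the test (−0.43 ± 0.27, adjusted p = 0.35).

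**Figure D2:**
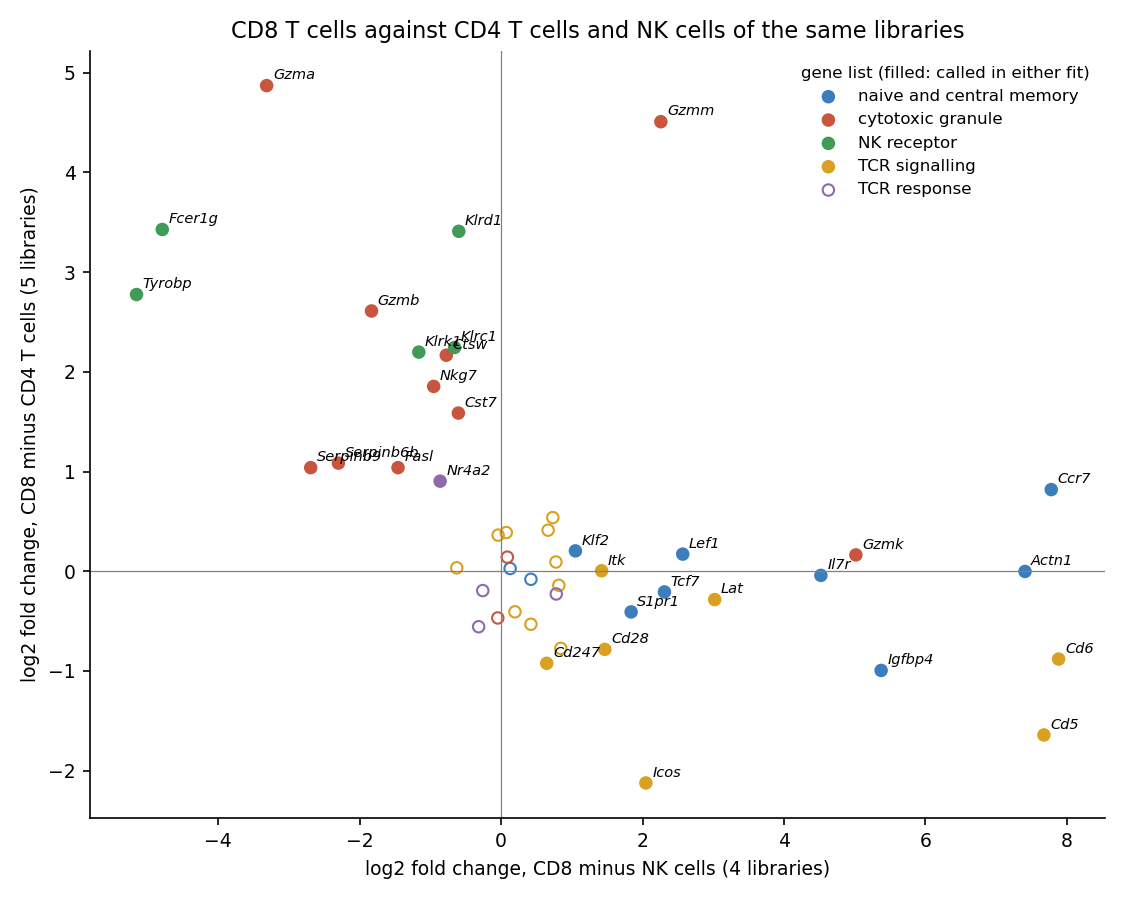
Genes of 5 lists by their log2 fold change in CD8 T cells against NK cells (x axis, 4 libraries) and against CD4 T cells (y axis, 5 libraries); each point is a gene, colour gives its list, and filled points passed an adjusted p of 0.05 in either fit. Gzma sits at −3.32 on the x axis and 4.87 on the y axis, and Ccr7 at 7.78 on the x axis.

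The CD8 T cells used many receptor genes. A Trbv gene, the variable segment of the receptor β chain, was found in 309 of the 382 cells (80.9%), and 22 of 35 annotated Trbv genes were seen. The most frequent were Trbv12-1 (42 cells), Trbv12-2 (39 cells) and Trbv16 (34 cells). In old control without the shared barcodes Trbv12-2 was found in 33 of 187 cells with a Trbv gene (17.6%), and in young control without them Trbv13-2 in 6 of 29 (20.7%). A Trav gene was found in 169 cells (44.2%), and 59 of 128 were seen. Reads of near-identical V genes can be assigned to the wrong member, so single V genes are uncertain.

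Gzmk was found most often in old control muscle. In control, 5 of 55 young CD8 T cells (9.09%) and 68 of 229 old ones (29.7%, 23.9 to 36.1) held a Gzmk UMI. After HU these were 1 of 5 young and 3 of 44 old cells (6.82%), and at 4-day reload 2 of 11 young and 9 of 38 old cells (23.7%, 11.4 to 40.2). Macrophages, which should lack it, held it in 2 of 4463 cells (0.0448%), at a median of 6802 UMIs against 3740.5 in the CD8 T cells. With each cell thinned to 1000 UMIs, which left out 14 young and 13 old control cells, the share was 7.32% in young and 19.4% in old control, a difference of 12.1 points (−0.872 to 19.6). Without the shared barcodes the thinned shares were 2.86% and 20.0%, and the difference was 17.1 points (4.50 to 23.5). The thinned share was 5.00% in old HU (0.611 to 16.9) and 8.11% in old reload (1.70 to 21.9), and the young HU and young reload libraries held too few cells to be read.

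CD8 T cells were also sorted by whether they held Gzmk or a naive gene (Ccr7 or Lef1). In young control 29 of 55 cells held a naive gene and no Gzmk (52.7%), and 0 of 55 held both. In old control 77 of 229 held a naive gene alone (33.6%), 43 held Gzmk alone (18.8%) and 25 held both (10.9%). Without the shared barcodes, which held no naive gene, the naive class was 29 of 36 cells in young control (80.6%, 64.0 to 91.8) and 77 of 211 in old control (36.5%, 29.99 to 43.4). Cells were not equally deep, with medians of 5999 UMIs in these young and 4202 in these old cells. Thinned to 1000 UMIs, the naive class was 16 of 35 young control cells (45.7%, 28.8 to 63.4) and 40 of 210 old control cells (19.0%, 13.97 to 25.0), and the class with both genes was 4 of the 210. The naive class was 26 of 44 cells in old HU (59.1%) and 18 of 38 in old reload (47.4%), and thinned 12 of 40 (30%) and 7 of 37 (18.9%).

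**Figure D3:**
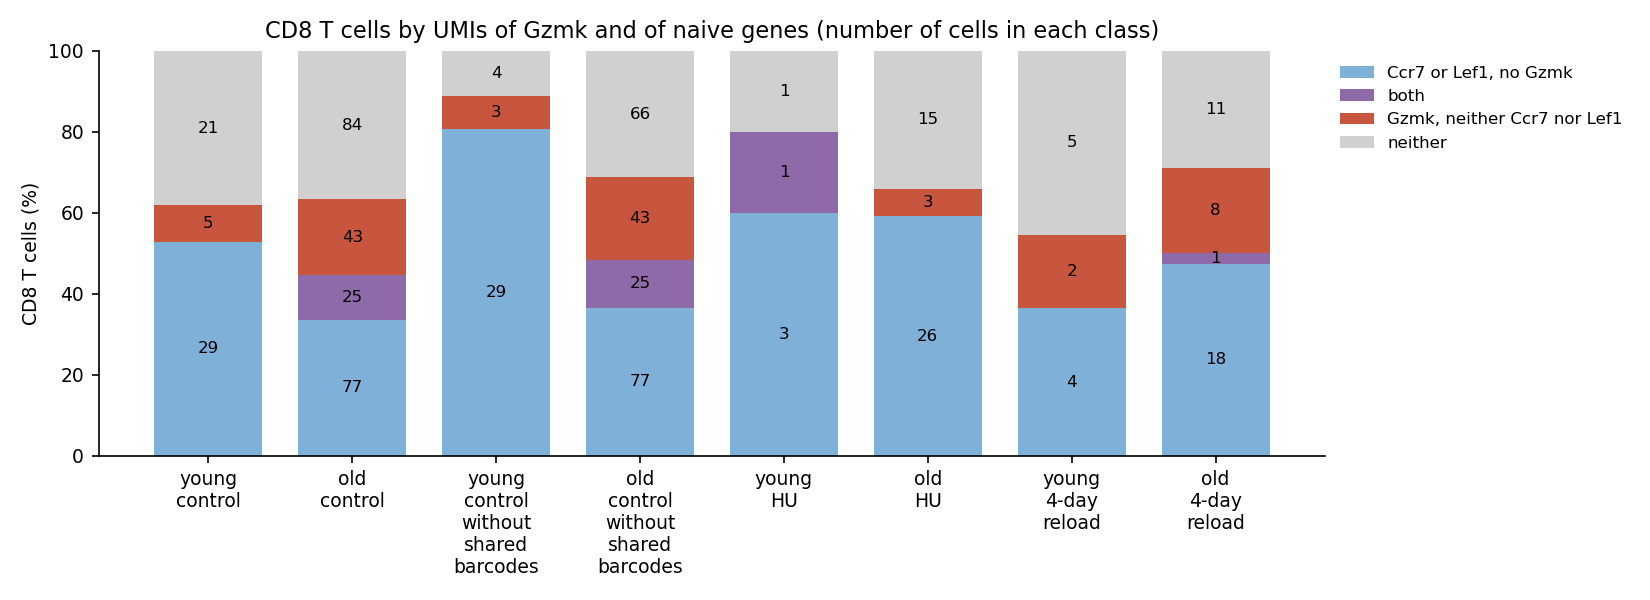
Percentage of the CD8 T cells of each library that held UMIs of a naive gene (Ccr7 or Lef1), of Gzmk, of both or of neither; numbers in the bars are cells, and the control libraries are also drawn without their shared barcodes. The cells are not thinned. The class with both genes is 25 cells in old control and 0 in young control.

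Cells with Gzmk differed from the other CD8 T cells of the same library. In old control without the shared barcodes, and thinned to 1000 UMIs, 42 cells with a Gzmk UMI were set against 168 without. Before thinning 68 cells held one, so some of the 168 had lost it. Ccl5 was found in 100% and 80.4% of them, and Nkg7 in 92.9% and 57.7%. The transcription factor genes Eomes (19.0% and 4.76%), Tox (19.0% and 2.98%) and Batf (19.0% and 4.17%) were more frequent with Gzmk, as were the checkpoint receptor gene Tigit (33.3% and 11.3%), Nr4a2 (64.3% and 25.0%), which receptor stimulation induces, and Cxcr3 (21.4% and 3.57%). Pdcd1 was found in 7.14% and 2.38%, and Cd44, also on the effector memory list, in 2.38% and 8.33%. Naive and central memory genes did not all go one way. Ccr7 was found in 2.38% and 16.7%, Il7r in 11.9% and 25.0%, Lef1 in 7.14% and 12.5%, Tcf7 in 14.3% and 14.9% and S1pr1 in 11.9% and 6.55%. Without thinning, cells with Gzmk were shallower (median 3600 against 4611 UMIs). Satb1 was then found in 22.1% and 54.5%, Klf2 in 64.7% and 84.6%, Actn1 in 2.94% and 25.2%, and S1pr1 in 35.3% and 29.4%. Gzmm was found in 4.76% of the cells with Gzmk and 8.33% of the others. These are cells of 1 library, so the shares are a description. The residency gene Itgae (CD103) was found in 5 of the 382 cells and Cd69 in 112 (29.3%).

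In control muscle, the summed counts of old and young CD8 T cells were compared gene by gene. There is 1 library a group and no test, so a gene is named as higher or lower when the CPM differed at least 1.5-fold and the 95% Poisson interval of the ratio lay beyond 1. Of 4071 genes with at least 30 UMIs over both libraries, 9.75% were higher in old and 3.41% were lower, with a median log2 ratio of 0.19 over all genes. With TMM scaling 357 were higher and 169 lower, and the median was 0.14. When the shared barcodes were left out, 11.9% of 3960 genes were higher and 3.59% lower. Of the 536 genes named, 469 were named again without the shared barcodes, 351 without the 25 cells that held other lineage markers, and 29 had at least 50% of their UMIs from a library in 1 cell. The latter include Lcn2, Ngp, Camp and Retnlg, neutrophil genes at the top of the list.

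Of 12 naive and central memory genes, 6 were lower in old control and none was higher, and the list median was −0.51 against 0.19 for all genes. Ccr7 was at 195 CPM in old and 465 in young control, a ratio of 0.42 (0.33 to 0.53). Lef1, a transcription factor that keeps T cells naive, was at 113 and 232 CPM (0.49, 0.35 to 0.68). Igfbp4 (0.27), Dapl1 (0.39), Actn1 (0.50) and S1pr1 (0.66), the receptor that lets cells leave lymph nodes, were lower too. Il7r (0.99, 0.74 to 1.34), Tcf7 (0.83, 0.57 to 1.24) and Klf2 did not pass the limit. The 6 genes were also lower without the shared barcodes, while Dapl1 did not pass without the cells of other lineages (0.80, 0.34 to 2.18).

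Of the 10 genes listed for the Gzmk effector memory population, 5 were higher in old control and 1, Ccl3, was lower, with a median of 0.56. Gzmk was at 282 CPM in old and 33.8 CPM in young control, a ratio of 8.35 (4.18 to 19.5), and Ccl5 was at 17428 and 5459 CPM (3.19, 3.02 to 3.38). Eomes was higher 2.17-fold (1.13 to 4.66), the chemokine receptor gene Cxcr3 3.04-fold and Cd44 1.66-fold, while Tox (55.7 and 67.6 CPM) and Pdcd1 (77.4 and 59.2 CPM) did not pass the limit. The list was named from known age-associated cells with these results known, so its direction is not independent evidence. Without the shared barcodes Pdcd1 passed, at 3.84-fold (1.44 to 14.5), Cxcr3 was higher 4.70-fold, Cd44 did not pass (1.65, 0.99 to 2.91), and Ccl3 had 3 UMIs in old and 0 in young control.

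Of 13 cytotoxic granule genes, 6 were higher in old control and 1 was lower, and without the shared barcodes 8 were higher and 1 lower. Gzmm, granzyme M, was at 102 and 12.7 CPM, with 108 UMIs in old and 3 in young control (ratio 8.05, 2.68 to 39.6). Nkg7, which acts in granule release, was at 1466 and 756 CPM (1.94, 1.66 to 2.28), and Ctsw (1.70), Fasl (3.33) and Serpinb6b (1.65) were higher too, the last of these not without the cells of other lineages (1.29). Gzma was lower, at 364 and 617 CPM (0.59, 0.49 to 0.72), and its UMIs lay in 29 of 229 and 5 of 55 cells. Gzmb turned with the shared barcodes: it was at 346 and 423 CPM with them (0.82, 0.65 to 1.03) and at 293 and 169 CPM without them (1.74, 1.24 to 2.52).

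Other groups moved with age in control as well. Of 19 T cell receptor signalling genes, 8 were higher in old and none lower, among them Cd247 (1.87), Lat (1.58), Cd28 (1.89) and Cd2 (1.75), with a median of 0.65. Cd2 did not pass without the cells of other lineages (1.46). The inhibitory receptor genes Tigit (203 and 80.3 CPM, ratio 2.53, 1.58 to 4.28) and Klrc1 (2.97) were higher, and so were Bhlhe40 (4.25) and Rgs1 (1.79) of the tissue-resident list. The ratios of Tigit, Klrc1 and Bhlhe40 were 4.42, 5.72 and 7.15 without the shared barcodes. Of 9 interferon response genes 2 were higher, Irf7 (2.84) and Ifi27l2a (1.99), and 6 were without the shared barcodes, beside the 11.9% of all genes. Ly6a, an interferon-induced surface protein, was at 177 and 182 CPM with the shared barcodes and at 151 and 9.1 CPM without them, and Ifng was higher 1.96-fold with them and 5.43-fold without them. Of the genes with the largest ratios, Bscl2 (15.9, 2.76 to 635), Tbl1xr1 (10.7) and Ethe1 (9.16) were spread over 54, 41 and 37 old cells, each against 1 UMI in young control.

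Heat-shock genes were the largest in the other direction. Hspb1 was at 6.61 CPM in old and 537 in young control, Hspa1a at 68.9 and 735 CPM (ratio 0.09, 0.07 to 0.12), and Hspa1b and Hsph1 were lower too. These chaperone genes are known to be induced when tissue is digested at warm temperature. Hspa1a was also higher in young control in the other cell types: 2843 against 64.3 CPM in CD4 T cells, 2608 against 71.4 in NK cells and 4512 against 577 in macrophages. Their part in the other age differences was not tested.

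**Figure D4:**
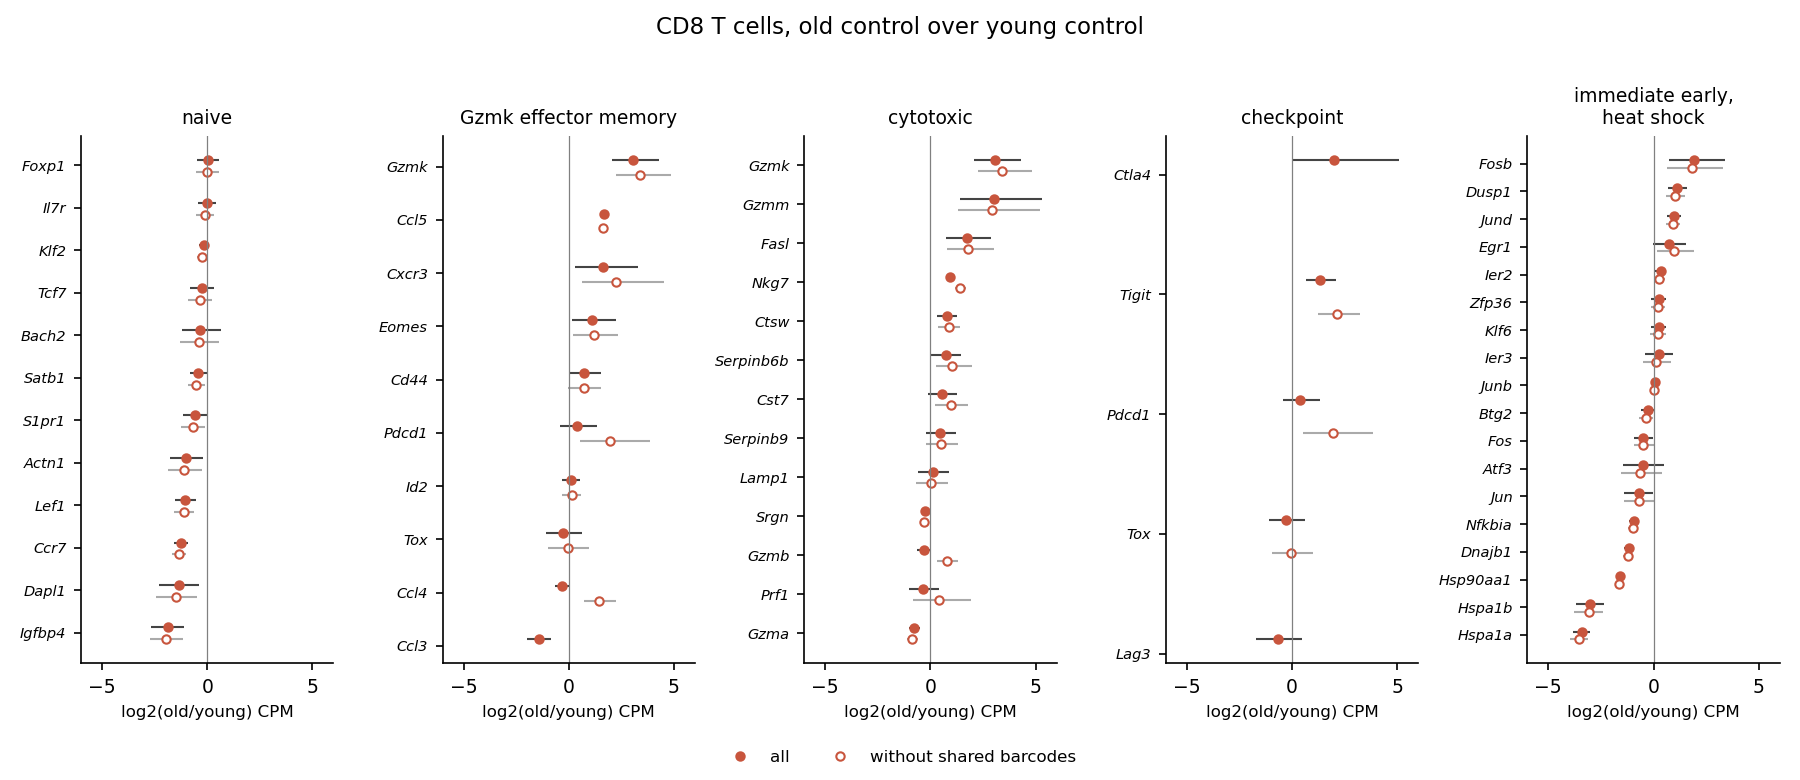
Log2 ratio of CPM in old over young control CD8 T cells for genes of 5 lists, with 95% Poisson intervals; filled points use all cells, open points leave out the shared barcodes, and only genes with UMIs in both libraries are drawn. Gzmk lies at a ratio of 8.35, Ccr7 at 0.42 and Hspa1a at 0.09.

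Across treatments, old and young CD8 T cells were compared in 1 edgeR fit with the treatment as a block. Young HU, with 5 cells, was left out, so the fit held 5 libraries and 1 residual degree of freedom. Old HU, then the only HU library, was fitted by its own treatment term. The age estimates therefore rest on the control and 4-day reload pairs. Of 2361 genes, 0.212% were higher in old and 0.169% were lower at an adjusted p under 0.05. Gzmk was at 33.8 and 282 CPM in young and old control, 45.1 and 54.3 in HU, and 63.4 and 120 in 4-day reload. Without the endothelial-marked cell, young HU had 90.9 CPM (1 UMI), above old HU. In the fit, which left young HU out, Gzmk was higher in old, with a log2 fold change of 2.46 ± 0.53 (adjusted p = 0.0018). Gzmm was at 12.7 and 102 CPM in control, 0 and 258 in HU, and 21.1 and 98.9 in reload, with the old value above the young one in each pair. By the limits used for single libraries, it was named as higher in old control. It was named in HU only with the endothelial-marked cell, and was not named at reload. The HU and reload pairs alone therefore do not show that Gzmm was higher in old. In the fit, to whose age estimate the HU libraries did not add, its log2 fold change was 2.75 ± 0.65 (adjusted p = 0.0089). The 3 other genes called higher, Ngp, Camp and Lcn2, rested on the 1 neutrophil-marked cell of old control. The 4 called lower were Hspb1 (−6.40 ± 0.64), Hspa1b (−2.54 ± 0.58), Hspa1a (−1.98 ± 0.51) and Il1b, of which 98% of the young control UMIs lay in 1 cell. With DESeq2, without the block and without old HU 0 genes were called, with 6, 51 and 44 at an unadjusted p under 0.05, so the calls of Gzmk and Gzmm depend on the model and on the old HU library. They remained called without the 25 cells of other lineages, and Gzmk without the shared barcodes (2.62, adjusted p = 0.0014).

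The start regions of Gzmk and Gzmm are shown because these granzyme genes were called together. They are the 250 bases before each RefSeq start (GRCm38.p6), 5′ to 3′ on the gene's strand, searched on both strands for GGTGTGA, the core motif of T-box factors such as Eomes and T-bet, which is in capitals. Gzmk starts on chr13:113180966-113181215 (− strand), and Gzmm has starts on chr10:79688770-79689019 and chr10:79693576-79693825 (+ strand).
Gzmk: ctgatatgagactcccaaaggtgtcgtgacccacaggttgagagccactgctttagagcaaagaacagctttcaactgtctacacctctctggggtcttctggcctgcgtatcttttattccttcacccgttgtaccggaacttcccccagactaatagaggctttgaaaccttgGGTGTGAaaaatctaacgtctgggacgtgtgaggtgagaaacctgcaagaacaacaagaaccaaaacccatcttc
Gzmm, first start: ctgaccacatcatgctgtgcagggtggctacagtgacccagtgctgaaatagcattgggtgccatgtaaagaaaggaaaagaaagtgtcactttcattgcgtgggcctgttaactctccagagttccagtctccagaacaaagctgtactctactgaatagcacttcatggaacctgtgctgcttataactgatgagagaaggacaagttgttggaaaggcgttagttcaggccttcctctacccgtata
Gzmm, other start: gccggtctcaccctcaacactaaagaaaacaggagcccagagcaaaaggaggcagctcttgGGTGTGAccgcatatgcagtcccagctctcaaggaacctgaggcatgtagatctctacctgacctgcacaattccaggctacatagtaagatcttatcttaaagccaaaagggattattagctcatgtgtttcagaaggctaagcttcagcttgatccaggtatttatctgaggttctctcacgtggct

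The motif was found once before the Gzmk start, at 75 bases, and once before the downstream Gzmm start, at 189 bases. It was in 3.33% of 32851 promoters of that length. The Runx motif TGTGGT, which was in 14% of them, was found once before the upstream Gzmm start and not in the other windows. A match describes the sequence and does not show that a factor binds there.

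To ask whether the age difference was particular to CD8 T cells, it was tested against that of CD4 T cells in the same 5 libraries. Of 1912 genes, 0% were higher and 0% lower at an adjusted p under 0.05 with edgeR, 63 had an unadjusted p under 0.05, and the smallest adjusted p was 0.056. DESeq2 also called 0 genes, with 22 at an unadjusted p under 0.05. For Gzmk, which had 0 CPM in CD4 T cells of young control and 399 in those of old control, the age difference in CD8 T cells exceeded that in CD4 T cells by 0.24 ± 1.03 (log2, adjusted p = 0.999). In these data the age difference in Gzmk was therefore not shown to differ between CD8 and CD4 T cells.

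After HU, 44 old cells stood against 5 young cells, so few genes could be read. Of 512 genes with at least 30 UMIs, 8.98% were higher in old and 10.9% lower, and TMM scaling turned this split to 294 higher and 22 lower, since it moved the median log2 ratio from 0.20 to 1.23. With TMM 68 of the 102 genes named were named again and 0 were named in the other direction. Of the 102 genes named, 48 had at least 50% of their UMIs from a library in 1 cell. The young cell with endothelial markers held 11179 of the 22182 young UMIs, so that it sets much of each young HU level. Fabp4, Igfbp7, Ly6c1, Sparc and Sparcl1, lower in old HU, all came from it. Without this cell 35 of 470 genes were named, 19 of the 102 were named again and 2 turned. Ccl5 was at 15543 CPM in old and 4779 in young HU, and at 9634 in young HU without the cell, where it was still higher in old (1.61, 1.33 to 1.98). Gzmm was at 258 and 0 CPM and did not pass without the cell. Of 13 immediate early genes 6 were lower in old HU, among them Jun and Dusp1, which were lower without the cell too (0.15 and 0.37), and Fos, whose 11 young UMIs all lay in it.

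At 4-day reload, 38 old cells were set against 11 young cells. Of 648 genes, 4.78% were higher in old and 7.87% lower, with a median of −0.07, and with TMM scaling 144 were higher and 16 lower, with a median of 0.38. Of the 82 genes named, 47 were named again with TMM and 0 in the other direction. Gzmb, granzyme B, was at 261 CPM in old and 42.2 in young (6.19, 1.60 to 53.0), though the call was lost without the cells of other lineages. Ifng was at 269 and 63.4 CPM (4.24, 1.34 to 21.5), and 60.5% of the old UMIs lay in 1 cell. Il7r was at 269 and 84.5 CPM (3.18, 1.14 to 12.3), with an interval that included 1 without those cells (0.97 to 16.4). Fos was at 346 and 63.4 CPM (5.47). Cxcr4, the chemokine receptor for Cxcl12, was at 233 and 0 CPM, 3.68-fold higher with the 0 set to 3 UMIs.

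Lower in old reload were the glucocorticoid receptor gene Nr3c1 (91.9 and 401 CPM, ratio 0.23, 0.10 to 0.49), Sh3glb1 (0.22) and Sh2d2a (0.27), which encodes a T cell signalling adaptor. Of 4 proliferation genes 3 were lower, Hmgb2 (0.33), Tubb5 (0.33) and Stmn1, and most of the young UMIs of Hmgb2 and Tubb5 (66.7% and 70.6%) lay in 1 cell. Of 10 receptor signalling genes, Cd28 and Cd2 were lower and none higher, where 8 of 19 had been higher in old control. The age ratios of the treatments were not tested against each other. Gzmk was at 120 and 63.4 CPM, with an interval of its ratio from 0.548 to 10.1, so that no difference was detectable at this depth. Ccr7 was at 184 and 359 CPM and passed the limit only without the cells of other lineages (0.39, 0.19 to 0.80).

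Reload and HU were compared within each age. In old muscle, 15.4% of 877 genes were higher at reload than in HU and 5.13% lower, a split that TMM scaling turned to 84 higher and 102 lower (median 0.06 to −0.12). In young muscle, 23% of 261 genes were higher and 10.7% lower, and TMM gave 99 and 18 (median 0.10 to 0.51). With TMM 129 of the 180 genes named in old and 78 of the 88 in young muscle were named again, and 0 in the other direction. Of the MHC class I presentation genes read, H2-K1, H2-D1 and H2-Q7 were higher at reload at both ages, 3 of 4 in young and 3 of 8 in old muscle, where Psmb8 was lower. H2-K1 was at 1352 and 3020 CPM in young HU and reload and at 1277 and 2558 in old, H2-D1 at 1262 and 2914 and at 1039 and 2657, and H2-Q7 at 90.2 and 1056 and at 143 and 940 CPM. The ratio of H2-Q7 was 6.59 in old (4.14 to 11) and 11.7 in young (3.08 to 99.4). Without the endothelial-marked cell the young ratios of H2-K1, H2-D1 and H2-Q7 were 2.77, 2.14 and 5.81, and all 3 passed. B2m, which pairs with all of them, was at 2344 and 2914 CPM in young and 1949 and 2643 in old and did not pass the limit.

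Of 4 interferon response genes read in old muscle, 3 were higher at reload, Ifi27l2a, Isg15 and Bst2. Ifi27l2a was at 61.1 and 565 CPM in old HU and reload (9.25, 4.64 to 21) and at 90.2 and 845 in young (9.37, 2.43 to 80.0), or 4.65 (1.21 to 39.7) without the endothelial-marked cell, and 67.5% of the young reload UMIs lay in 1 cell. In old muscle Nkg7, Gzma and Gzmb were also higher at reload, Gzmb not without the cells of other lineages, while Gzmm (258 and 98.9 CPM, 0.38, 0.19 to 0.72), the chemokine gene Ccl4 (0.27, 0.14 to 0.50) and Il7r were lower. The receptor response genes Nr4a2 and Nr4a3 were higher in old reload. The fit across treatments left young HU out, so its HU level was that of old HU alone, without a replicate. Its age term came from the control and reload pairs, so it does not show a step from HU at both ages. In it, 0.127% of 2361 genes were higher at reload and 0.0424% lower. Ifi27l2a (3.32 ± 0.68), H2-Q7 (2.57 ± 0.65) and the non-coding Gm26917 were higher and Gm11808 lower. DESeq2 called none of them, with 26 genes at an unadjusted p under 0.05, and without the shared barcodes Ifi27l2a alone was called.

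Some of this step was not limited to CD8 T cells. H2-K1 was at 507 and 1494 CPM in macrophages of young HU and reload and at 612 and 1276 in old, and H2-Q7 at 4.5 and 67.7 and at 19.8 and 68.8. The non-coding Gm42418, which overlaps a ribosomal RNA repeat, moved with them: it was at 1713 and 21962 CPM in young HU and reload CD8 T cells, at 4814 and 28909 in old ones, and was at 5822 and 20561 and at 7501 and 25441 CPM in macrophages. Ifi27l2a was at 1207 and 1698 CPM in macrophages of young muscle and at 1244 and 1776 in old. In old HU and reload CD4 T cells (12 and 10 cells), H2-K1 was at 2120 and 2831 CPM and H2-Q7 at 257 and 466. In old NK cells (9 and 10 cells) H2-K1 was at 2888 and 4267 CPM and H2-Q7 at 219 and 1067. Ifi27l2a went the other way in old CD4 T cells (1831 and 1299 CPM) and had no UMI in these NK cells. The part of Gm42418 in the other reload values was not tested.

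**Figure D5:**
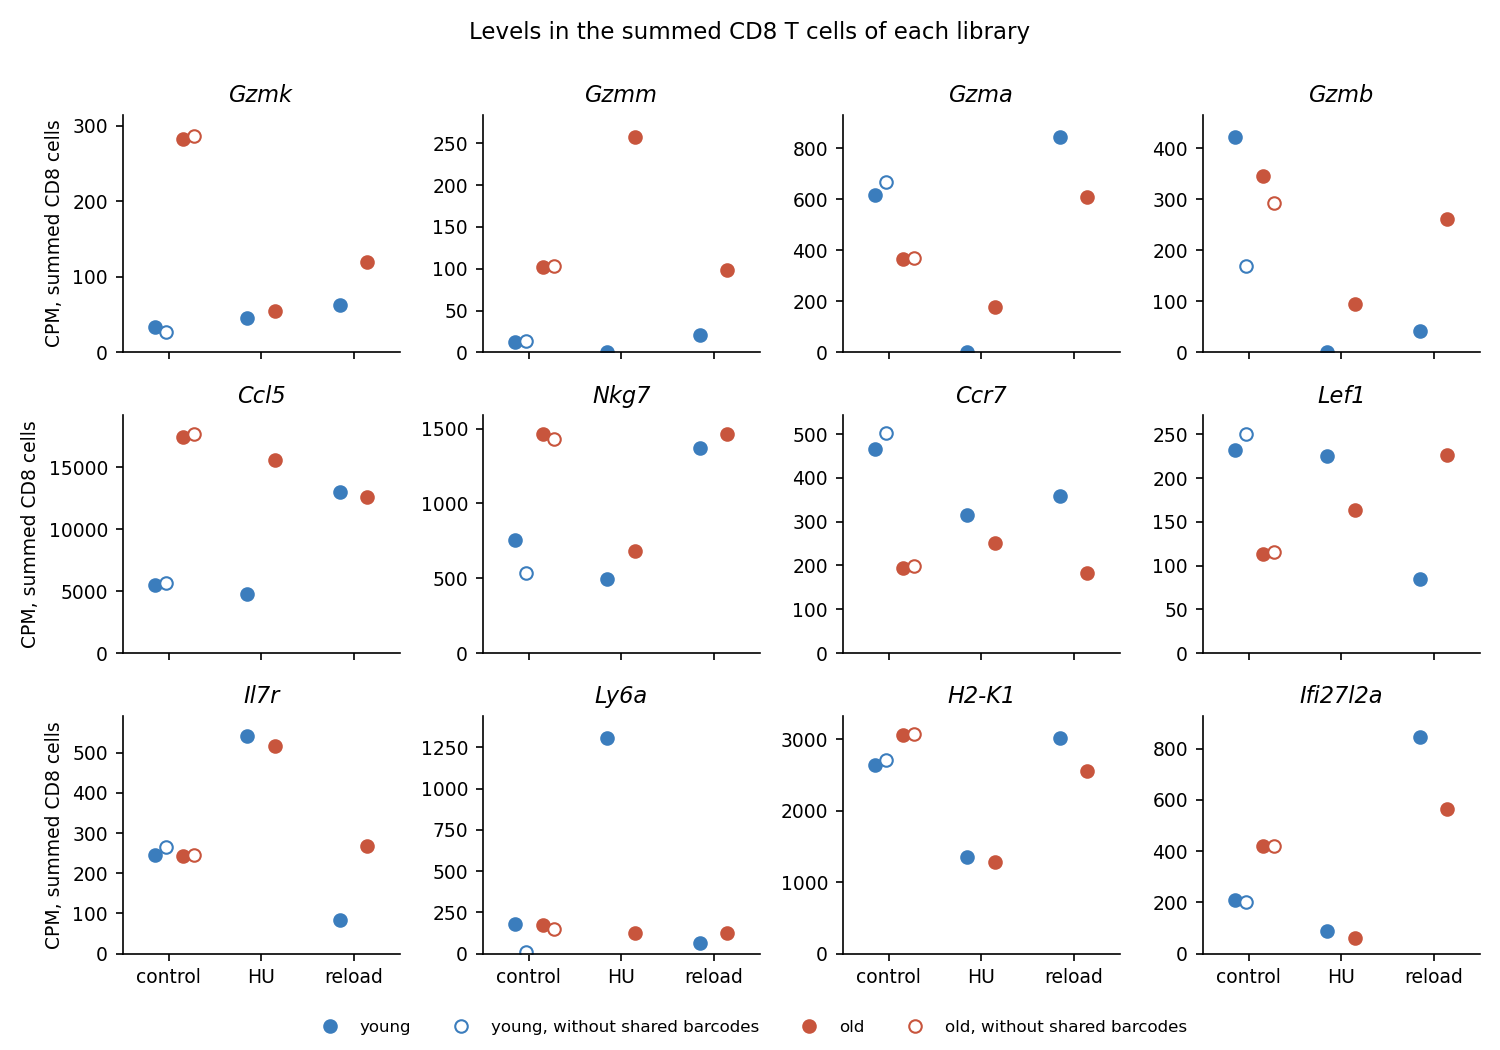
CPM of 12 genes in the summed CD8 T cells of each library by treatment, young in blue and old in red, 1 point a library; open points leave out the shared barcodes in control. Gzmk is highest in old control at 282 CPM, Gzmm in old HU at 258 CPM, and H2-K1 and Ifi27l2a are lower in both HU libraries than in the other 4.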

How the data were processed

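Leukocytes of 6 pooled soleus samples were profiled with 10x 3′ chemistry. The authors deposited raw UMI counts without normalization. Per the labels, reads were processed with Cell Ranger 3.1.0 against mm10. Here barcodes were filtered and selected as described above, UMIs were summed over the cells of each kind and library, and CPM divides by that sum. Libraries held 5782054 to 22749375 UMIs over 1675 to 3676 barcodes. Scrublet (scanpy 1.11.5) marked 3 CD8 T cells as doublets, which were kept. Fits used edgeR 4.0.16 (quasi-likelihood, TMM, filterByExpr, Benjamini-Hochberg), checked on simulated counts, with DESeq2 1.42.0 as an alternative. In comparisons of single libraries, ratios have exact Poisson intervals and a group at 0 was set to a floor of 3 UMIs. Where a bound is named, it is the ratio with this floor and not the lower end of the interval. Shares have 95% exact binomial intervals and their differences Newcombe intervals. Genes were named by rank in each comparison and from 33 gene lists (302 of 303 genes matched, and 1 further listed gene is not reported here). The members and lists were chosen with earlier results of these data known. Removal of shared barcodes, of cells with other lineage markers and of cells with at least 3 endothelial markers was chosen after seeing the data.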

Additional observations from a re-analysis of the deposited data

How the results depend on the processing

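Each group was 1 pooled library, so p-values measure only the spread between libraries of different ages or treatments, not between mice. The 5 young HU and 11 young reload cells limit comparisons with those libraries. No block of replicates within a group could be fitted, because each group has 1 library. The age pairs in the text are the young and old library of 1 treatment. The fits of CD8 T cells against CD4 T cells or NK cells pair the kinds of cell within each library. The mean age differences of the CD8 shares kept their direction under every setting tried, but with cells thinned to 1000 UMIs before selection the control difference in the share of T cells turned to −1.84 points (−13.8 to 7.82), with old higher in 2 of 3 treatments (mean 9.68 points, exact permutation p = 0.5). Genes called between CD8 and CD4 T cells went from 157 to 66 without doublets. That setting left old reload with 9 CD4 T cells and so out of the fit. They numbered 44 without the library block and 55 to 155 when 1 library was left out, fewest without old reload. Against NK cells 415 became 165 to 675, fewest without old control. The 9 genes called for age became 0 with DESeq2, without the block and without old HU, and the values of Hspa1a and Hspa1b turned to 0.73 and 0.21 with DESeq2. The 4 genes called between reload and HU became 0 with DESeq2, 1 with all genes or without the shared barcodes, 7 without the cells of other lineages and 18 without the block. The 0 genes whose age difference separated CD8 from CD4 T cells became 1 with DESeq2 size factors or without the shared barcodes, 3 with all genes, 4 without doublets or with both Cd8a and Cd8b1 required, and 0 to 12 with 1 library left out. Without doublets, old reload again left this fit, with 9 CD4 T cells. With both coreceptor genes young reload left it, with 5 CD8 T cells, so young control was the only young library. Gzmk in this fit turned to −0.089 without doublets and −6.13 with both coreceptor genes. With 1 library left out Gzmk lay between −5.98 and 1.46, below 0 without old HU, young reload or old reload. It passed the test in none of these fits. Genes named in control fell from 536 to 338 with both coreceptor genes, 104 after thinning and 278 with a minimum of 100 UMIs; in HU from 102 to 18 and 43, 35 without the cell with endothelial markers (where Gzmm's bound fell to 0.946-fold, below 1) and 316 with TMM; at reload from 82 to 16 and 32, and 160 with TMM. For reload over HU, 88 in young became 18 after thinning and 35 with the higher minimum, and 180 in old became 63, 61 and, with both coreceptor genes, 108. The difference in the share of control cells with Gzmk, 12.1 points, was 19.7 when thinned to 2000 UMIs and 20.6 without thinning. Some leave-one-out fits could not be fitted, as no residual degree of freedom was left.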

Other observations

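Other gene groups of the control CD8 T cells also held age differences, by the same limits of size and counting interval. The chemokine receptor gene Ccr2 had 38 UMIs in 28 old cells and none in young control, 2.83-fold higher with the young count set to 3 UMIs. S1pr4 was higher 1.66-fold (1.11 to 2.59). The interleukin 10 receptor gene Il10ra was at 63.3 CPM in old and 16.9 in young control (3.74, 1.40 to 14.1), and Il21r was lower (0.66, 0.49 to 0.90), as was the lymphotoxin gene Ltb (0.62, 0.45 to 0.87). Among transcription factor genes, Foxo1 (2.04) and Tbx21 (2.12), which encodes T-bet, were higher, and Batf (0.37) and Id3 (0.48) lower. The receptor response genes Nr4a1 (1.66) and Nr4a2 (1.54) were higher. All of these genes passed in the same direction without the shared barcodes, while S1pr4, Ltb, Tbx21 and Id3 did not pass without the cells of other lineages.

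Of 14 oxidative phosphorylation genes 1 was higher in old control, Ndufa1 (1.93, 1.31 to 2.95), with a list median of 0.21 (log2) against 0.19 for all genes. When the shared barcodes were left out, 2 were higher. Of 13 glycolysis genes none was higher and Tpi1 was lower (0.60, 0.41 to 0.90), and without the shared barcodes Tpi1 did not pass (0.87, 0.53 to 1.53). None of 9 proliferation genes passed in either direction with all cells. Without the shared barcodes, where 11.9% of all genes were higher, 5 of the 9 were, among them Hmgb2 (1.51, 1.17 to 1.98) and Pclaf. Pclaf had 46 UMIs in old and 0 in young control, 3.23-fold higher with the 0 set to 3 UMIs. The type 2 cytokine gene Il5 had 30 UMIs in old control, all in 1 cell, and 0 in young control.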
